A study of Rattus norvegicus with 6 samples.

Results

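Cholesterol and fatty acid synthesis was examined in the maternal thyroid through 34 genes, listed by name for their place in these pathways by a choice made with earlier results of these data known. Of the 34 genes, 28 had a row of that symbol among the 15388 genes of the count tables, and Fasn, Scd, Elovl5, Elovl6, Fads1 and Fads2 were not analysed here under these symbols. The stearoyl-CoA desaturase Scd1, an older symbol of Scd in RefSeq, did have a row and is given apart from the 28. The samples were thyroid RNA of adult Sprague-Dawley rats, for which no transgene or drug was named, from 3 non-pregnant (NP) samples and 3 samples taken on day 18 of pregnancy (late pregnancy, LP), where the day of the vaginal plug is day 1. The ages of the rats were not given in the sources used here. Libraries were made from mRNA with poly(A) tails, and reads counted on genes are the measurement. All values are relative to the RNA of the whole dissected gland, in which fewer cells of a type and less RNA per cell cannot be told apart.

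Cells make cholesterol from acetyl-CoA through mevalonate, isoprenoids and squalene, and they make fatty acids from the same acetyl-CoA through malonyl-CoA. Both pathways are controlled by the sterol regulatory element binding proteins (SREBPs), which the escort protein SCAP carries from the endoplasmic reticulum to the Golgi when sterols are low and which the INSIG proteins hold back when sterols are high. SREBP-2, the product of Srebf2, mainly drives genes of cholesterol synthesis, and SREBP-1, the product of Srebf1, mainly drives genes of fatty acid synthesis. Cultured thyroid cells are known to switch on SREBPs when stimulated by thyroid stimulating hormone.

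The counts summed to between 2752144 and 3449857 reads per sample, and the 28 genes together took between 0.148% and 0.162% of them. A level of 3 reads, the smallest taken as detectable, lay between 0.889 and 1.07 CPM (a gene's reads for each megaread counted in that sample, after TMM scaling of the total), a limit of counting error only. Between replicates 2 and 3 of a group the counts varied no further than repeated draws would (chi-square per degree of freedom 1.02 for NP and 0.995 for LP, where 1 is the value for draws from the same library). Their mean therefore stands for 1 sample in each mean and SD (n = 2 per group). The test took all 3 samples of a group as separate, and its p-values measure the spread between these samples, which may be technical. Of 8 follicular cell markers, 2 were up-regulated (Nkx2-1 and Duox2) and 2 down-regulated (the iodide transporter Slc5a5 and the receptor Tshr), while Tg, at 22.9% to 24.5% of reads, Pax8 and Foxe1 did not pass the test. Skeletal muscle markers stood apart, since their summed level lay between 21.1 and 77.3 CPM in NP and between 3801 and 4061 CPM in LP, with 8 of the 10 tested markers up-regulated and Myh1 and Mylpf without a read in NP. The other tested muscle markers, Acta1 and Pygm, did not pass the test (adjusted p = 0.93 and 0.822). Neither had a read in replicate 1 of either group. Acta1 had 0, 54.4 and 47.3 CPM in NP and 0, 55.1 and 54.9 CPM in LP. The part of muscle RNA in the values of the lipid genes was not tested. The summed level of 8 adipocyte markers also differed without overlap, from 118.9 to 141.9 CPM in NP and from 242.5 to 273.1 CPM in LP, and its part was not tested either. Of the 6 adipocyte markers tested, 1 was up-regulated, Plin4 (14.8-fold, adjusted p = 2.12e-15), and most of the difference between the sums was its own. Plin4 had 8.22, 8.84 and 8.21 CPM in NP and 128, 126 and 122 CPM in LP. Adipoq and Plin1 had log2 fold changes of 0.19 (adjusted p = 0.383) and 0.27 (adjusted p = 0.241), and Cidec, Retn and Cfd did not pass the test either. Lep and Ucp1 were too low in counts to be kept for the test. With no filter on low counts, edgeR gave Lep a log2 fold change of -0.23 (adjusted p = 0.806). Ucp1 went against the sum, at -1.70 (adjusted p = 0.0116), with every LP sample below every NP sample. No sample held over 12 reads of Ucp1.

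Promoter windows of RefSeq (assembly GRCr8, 250 bases before to 50 bases after each gene's start) were found for 23 of the 28 genes, with 24 windows because Srebf1 has a pair of starts. The counts were made on another assembly, rn5, so these positions belong to the windows alone. The windows of the regulators that were up-regulated in LP are shown because the SREBPs and INSIG1 take part in their own control, those of Acss2 and Mvk because these enzymes changed in opposite directions. Capitals mark matches on either strand to the sterol regulatory element core TCACNCCA, the E-box CACGTG, the NF-Y box CCAAT and the Sp1 box GGGCGG. No match to a motif overlapped a match to another.
Srebf1, chr10:45518961-45519260, minus strand: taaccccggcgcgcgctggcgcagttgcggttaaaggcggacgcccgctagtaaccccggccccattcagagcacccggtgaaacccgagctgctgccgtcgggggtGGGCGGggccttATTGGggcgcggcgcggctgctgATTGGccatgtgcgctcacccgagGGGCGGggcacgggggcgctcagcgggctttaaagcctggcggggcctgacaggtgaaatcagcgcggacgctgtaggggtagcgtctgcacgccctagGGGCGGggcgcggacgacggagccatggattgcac
Srebf1, chr10:45529115-45529414, minus strand: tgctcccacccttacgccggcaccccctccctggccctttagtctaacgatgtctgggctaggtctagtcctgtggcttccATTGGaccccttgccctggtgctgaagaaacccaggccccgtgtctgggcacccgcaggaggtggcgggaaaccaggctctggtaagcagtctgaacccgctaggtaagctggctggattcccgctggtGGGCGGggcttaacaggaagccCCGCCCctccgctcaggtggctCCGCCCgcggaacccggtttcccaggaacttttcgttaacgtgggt
Srebf2, chr7:115543057-115543356, plus strand: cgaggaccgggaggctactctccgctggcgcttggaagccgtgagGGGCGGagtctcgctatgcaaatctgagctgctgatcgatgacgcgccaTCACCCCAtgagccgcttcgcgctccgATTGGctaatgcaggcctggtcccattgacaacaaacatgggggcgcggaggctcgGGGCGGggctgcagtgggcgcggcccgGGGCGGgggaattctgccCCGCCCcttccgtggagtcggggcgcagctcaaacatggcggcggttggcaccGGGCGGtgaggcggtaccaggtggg
Insig1, chr4:8057720-8058019, minus strand: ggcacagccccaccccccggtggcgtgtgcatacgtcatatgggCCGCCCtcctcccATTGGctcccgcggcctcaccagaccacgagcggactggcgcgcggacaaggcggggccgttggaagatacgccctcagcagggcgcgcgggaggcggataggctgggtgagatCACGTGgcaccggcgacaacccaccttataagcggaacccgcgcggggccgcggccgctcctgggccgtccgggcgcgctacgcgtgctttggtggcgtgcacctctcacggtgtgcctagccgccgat
Acss2, chr3:164464453-164464752, plus strand: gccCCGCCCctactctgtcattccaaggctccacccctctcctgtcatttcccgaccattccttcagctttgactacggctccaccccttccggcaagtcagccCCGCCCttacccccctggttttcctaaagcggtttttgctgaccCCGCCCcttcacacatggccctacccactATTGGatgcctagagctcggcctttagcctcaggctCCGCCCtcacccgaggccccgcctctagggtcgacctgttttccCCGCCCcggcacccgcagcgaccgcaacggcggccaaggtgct
Mvk, chr12:47819454-47819753, minus strand: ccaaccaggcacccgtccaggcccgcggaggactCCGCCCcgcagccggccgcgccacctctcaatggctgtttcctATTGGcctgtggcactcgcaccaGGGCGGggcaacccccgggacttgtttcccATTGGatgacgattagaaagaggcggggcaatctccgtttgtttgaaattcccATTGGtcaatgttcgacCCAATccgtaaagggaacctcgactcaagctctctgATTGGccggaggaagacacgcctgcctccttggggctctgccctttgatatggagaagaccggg

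The sterol regulatory element core was matched in 2 of the 24 windows (8.33%), those of Srebf2 (starting at -156 from the gene's start) and Msmo1 (-190), and in 3.89% of all 33469 windows. The NF-Y box was in 79.2% of the members' windows and in 37.5% of all windows, or 36.8% of the 9808 windows of genes that were tested here. The Sp1 box was in 87.5% of the members' windows, against 33.1% of all windows and 62.2% of those of tested genes. The E-box was in 3 windows (12.5%), those of Insig1, Scap and Sc5d, against 6.42% of all windows and 8.99% of those of tested genes. By direction, 5 of the 7 up-regulated genes with a window held an NF-Y box, as did both down-regulated genes and 10 of the 13 genes that were tested and did not pass. These are matches of letters and say nothing of binding.

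Across the 28 genes, 27 passed the filter on low counts, and 10 were up-regulated and 3 down-regulated in LP by edgeR's quasi-likelihood test (Benjamini-Hochberg adjusted p below 0.05 over all genes tested). The up-regulated genes were 37.0% of the 27, where 15.3% of all 11738 genes tested were higher in LP, and the down-regulated genes were 11.1%, where 11.7% of all genes were lower. The median log2 fold change of the 27 genes was 0.17, with a range from -0.64 to 0.63, and the median of all genes tested was -0.0089. None of the 27 genes passed the study's cutoffs (more than 2-fold, with adjusted p below 0.05), which 5.44% of all genes did. The count was also 0 at an unadjusted p below 0.05 with that fold change, with DESeq2 and with limma-voom. With replicates 2 and 3 summed into 1 sample, 8 members were up-regulated and 3 down-regulated, and Srebf2 and Cyp51 were no longer called. Scaling by library totals alone left 7 up-regulated and 3 down-regulated members, and it turned the balance over all genes from 1794 higher and 1374 lower to 1461 higher and 2146 lower.

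Every LP sample lay above every NP sample for 10 of the 27 genes and below for 3, where 21.1% and 18.9% of all genes did so. All 4 measured genes of fatty acid synthesis, of 10 listed, and 3 of the 6 regulators were up-regulated. With DESeq2 it was 2 of the 6 regulators. Of the 17 tested genes of the cholesterol pathway proper, 3 were up-regulated and 3 down-regulated. Among all genes tested, 15.3% were higher and 11.7% lower in LP.

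**Figure D1:**
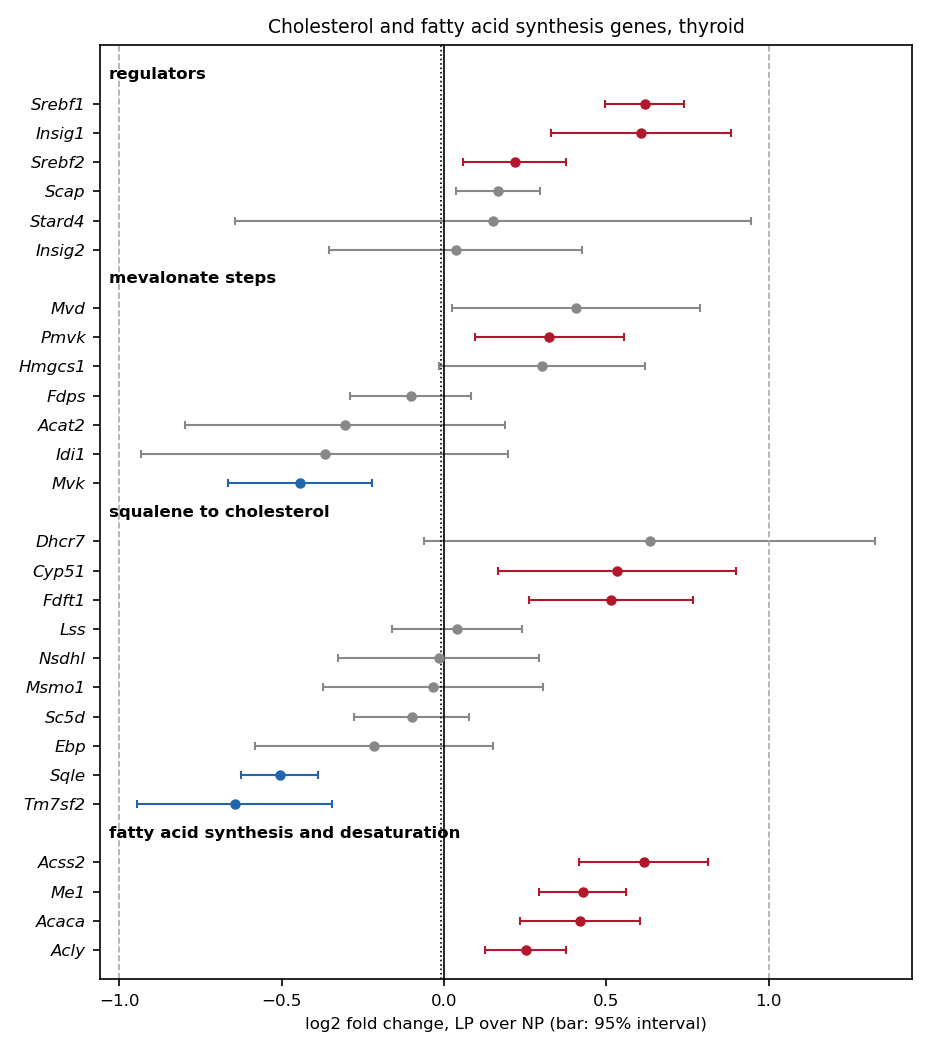
Log2 fold change (LP over NP, edgeR) of the 27 members that passed the filter, by role, with 95% intervals. Red and blue points passed the test as higher and lower in LP and grey points did not, dashed lines mark a 2-fold change and the dotted line the median of all genes (-0.0089). The 4 fatty acid genes all lie to the right of 0, whereas the cholesterol genes lie on both sides.

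Among the regulators, Srebf1 (ENSRNOT00000047053) had the largest change. Its level was 112, 109 and 103 CPM in NP replicates 1, 2 and 3, and 172, 161 and 164 CPM in LP. The groups did not overlap, and means were 109 ± 4.6 CPM in NP and 167 ± 6.7 CPM in LP (SD, n = 2), a 1.53-fold rise (log2 0.62, standard error or SE 0.057, adjusted p = 2.18e-07). Insig1, which retains the SCAP and SREBP complex in the endoplasmic reticulum and is itself a target of SREBPs, was lower in reads but changed to a like extent. Its level was 18.2, 17.7 and 16.4 CPM in NP and 28.4, 25.5 and 25.8 CPM in LP. Again no LP sample fell within the NP range, and the log2 fold change was 0.61 (SE 0.13, adjusted p = 0.00192).

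Srebf2 gave a smaller and less even difference. NP samples had 171, 149 and 144 CPM and LP samples 169, 198 and 172 CPM, so the groups overlapped. The log2 fold change was 0.22 (SE 0.075, adjusted p = 0.0395). It came from replicates 2 and 3 (log2 ratio 0.33), and in replicate 1 the ratio was -0.016. The adjusted p was above 0.05 under 7 of 16 alternatives, reaching 0.218 with replicates 2 and 3 summed into 1 sample. With a replicate left out, it reached 0.155 without NP replicate 2, 0.201 without NP replicate 3, 0.228 without LP replicate 2 and 0.060 without LP replicate 3.

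The escort Scap had 121, 111 and 117 CPM in NP and 138, 125 and 127 CPM in LP. These groups did not overlap, but the change was small at 0.17 on the log2 scale (SE 0.061) and just missed the threshold (adjusted p = 0.0538). With the replicate block the adjusted p of Scap was 0.0243, without NP replicate 1 it was 0.0414, and 5 of 16 alternatives passed the threshold. Insig2, the other retention protein, overlapped between groups at 10.7, 14.1 and 14.4 CPM in NP and 13.7, 15.1 and 11.6 CPM in LP. Its log2 fold change was 0.036, with a 95% interval from -0.35 to 0.43. Stard4, a carrier of cholesterol between membranes, had only 7 to 12 reads per NP sample and 7 to 17 per LP sample. At this depth its interval ran from -0.64 to 0.94, so a change of the size of that of Srebf1 was not detectable.

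**Figure D2:**
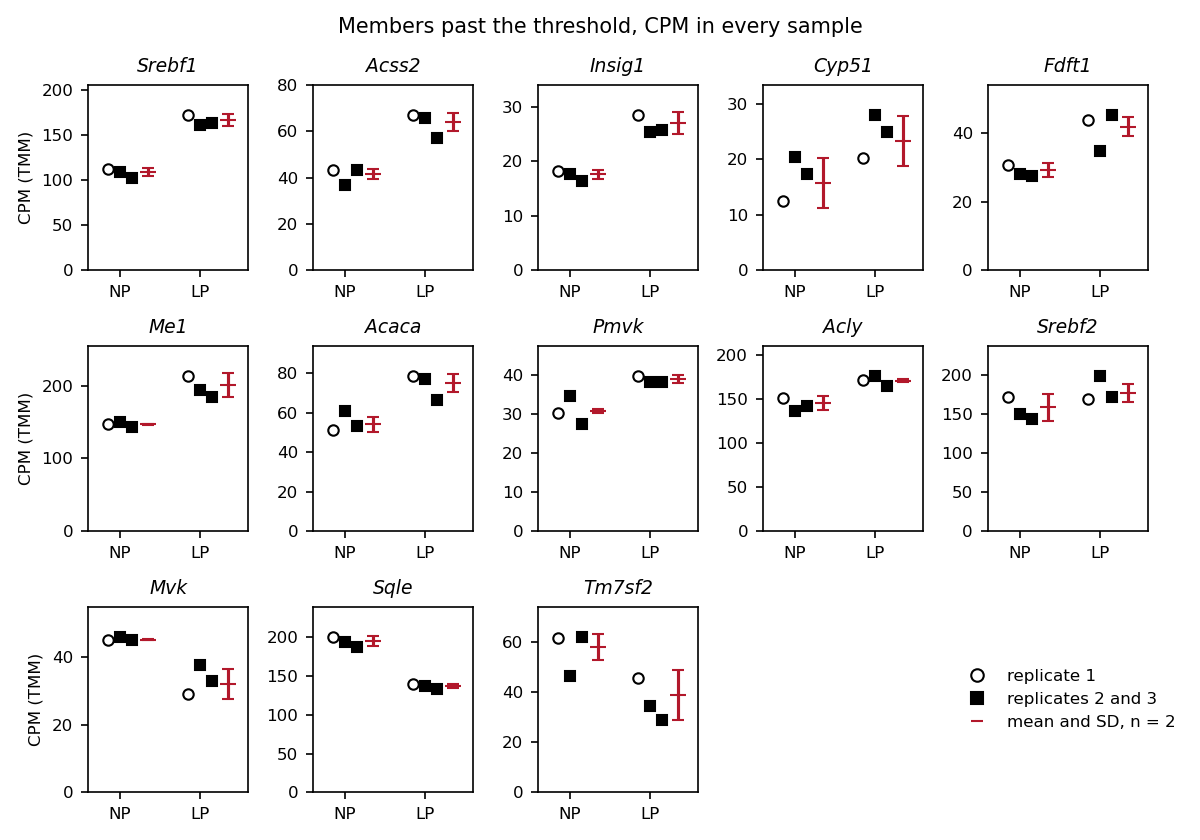
CPM (TMM scaled) in every sample for the 13 members that passed the test, with open circles for replicate 1, filled squares for replicates 2 and 3, and red bars for mean and SD (n = 2). Srebf1 and Sqle separate the groups by much more than their spread, whereas Srebf2 and Cyp51 overlap.

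The mevalonate steps, which turn acetyl-CoA into farnesyl diphosphate, showed 1 up-regulated and 1 down-regulated gene among 7 (14.3% each, against 15.3% and 11.7% of all genes). Their median log2 fold change was -0.10. Mevalonate kinase Mvk was the down-regulated gene. Its level was 45.0, 45.9 and 45.0 CPM in NP and 29.1, 37.6 and 32.9 CPM in LP. All LP samples lay below all NP samples, and Mvk fell by 0.44 on the log2 scale (SE 0.10, adjusted p = 0.00406). Pmvk, the kinase of the following step, moved the other way. Its level was 30.4, 34.7 and 27.6 CPM in NP and 39.6, 38.2 and 38.3 CPM in LP. The log2 fold change of Pmvk was 0.32 (SE 0.11, adjusted p = 0.0341) without overlap between groups, but the call was lost under 7 of 16 alternatives. DESeq2 gave Pmvk an adjusted p of 0.230. Leaving out NP replicate 1 gave 0.0806, NP replicate 3 gave 0.169, and LP replicates 1, 2 and 3 gave 0.0888, 0.0701 and 0.0750.

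The other 5 genes of these steps did not pass the test. Hmgcs1, the enzyme that forms HMG-CoA, had 15.7, 17.7 and 17.7 CPM in NP and 19.8, 24.3 and 19.0 CPM in LP, which differed by 0.30 on the log2 scale (95% interval from -0.015 to 0.62). Mvd, a decarboxylase of these steps, was close to NP in LP replicate 1 and above it in LP replicates 2 and 3. It had 12.5, 11.8 and 12.8 CPM in NP and 12.8, 17.5 and 18.7 CPM in LP. Its log2 fold change was 0.41 (adjusted p = 0.112), and without LP replicate 1 the adjusted p was 0.0308. Farnesyl diphosphate synthase Fdps had a log2 fold change of -0.10 (95% interval from -0.29 to 0.085), and Acat2, which joins the opening pair of acetyl-CoA molecules, one of -0.31 (interval from -0.80 to 0.19).

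Idi1, the isomerase of isopentenyl diphosphate, varied with replicate number as well as between groups. It had 11.1 CPM in NP replicate 1 against 21.6 and 17.4 in NP replicates 2 and 3, and 7.03 CPM in LP replicate 1 against 17.5 and 14.2 in LP replicates 2 and 3. Replicate 1 was thus the lowest of both groups, and within each number LP was below NP. The log2 fold change of -0.37 (95% interval from -0.93 to 0.20, adjusted p = 0.353) did not pass the test.

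From squalene to cholesterol, 10 of 11 genes were tested, and 2 were up-regulated and 2 down-regulated (20% each, against 15.3% and 11.7% of all genes). The median log2 fold change of the 10 genes was -0.025. Squalene synthase Fdft1, which commits farnesyl diphosphate to sterols, had 30.7, 28.2 and 27.6 CPM in NP and 43.8, 34.7 and 45.1 CPM in LP. The groups did not overlap and the log2 fold change was 0.51 (SE 0.12, adjusted p = 0.00339). The next enzyme, squalene epoxidase Sqle (ENSRNOT00000012883), a rate-limiting step of sterol synthesis, moved in the opposite direction. Its level was 200, 194 and 187 CPM in NP and 139, 137 and 133 CPM in LP. Sqle had the smallest SE of the 27 genes, 0.056, and fell by 0.51 on the log2 scale (adjusted p = 1.99e-06) from 195 ± 6.3 CPM (SD, n = 2) to 137 ± 2.9 CPM.

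Cyp51, the lanosterol demethylase, had 12.5, 20.3 and 17.4 CPM in NP and 20.1, 27.9 and 24.9 CPM in LP. LP replicate 1 lay just within the NP range, although the ratio was of like size in replicate 1 (log2 0.66) and in replicates 2 and 3 (0.47). The difference on the log2 scale was 0.53 ± 0.17 (SE, adjusted p = 0.0298), and this p became 0.118 with DESeq2 and 0.0857 with replicates 2 and 3 summed. It was 0.129 without NP replicate 1, 0.0645 without NP replicate 3, 0.145 without LP replicate 2 and 0.0922 without LP replicate 3. Tm7sf2, a sterol reductase of the steps that follow, had 61.5, 46.5 and 61.7 CPM in NP and 45.7, 34.4 and 28.8 CPM in LP. The highest LP sample was just below the lowest NP sample, and Tm7sf2 fell by 0.64 on the log2 scale (SE 0.14, adjusted p = 0.00226).

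Another 5 genes of the late steps did not pass the test, with 95% intervals that included 0. Lanosterol synthase Lss had a log2 fold change of 0.040 (95% interval from -0.16 to 0.24), the sterol oxidase Msmo1 one of -0.033 (from -0.37 to 0.31) and the dehydrogenase Nsdhl one of -0.017 (from -0.33 to 0.29). Sc5d, the desaturase near the end of the pathway, had -0.10 (from -0.28 to 0.077), and the isomerase Ebp had -0.22 (from -0.58 to 0.15). Dhcr7, which makes cholesterol from its last precursor, had 5.36, 2.62 and 5.58 CPM in NP and 9.58, 6.82 and 4.75 CPM in LP. Its log2 fold change of 0.63 was as large as that of Srebf1, but with 8 to 30 reads per sample the interval ran from -0.061 to 1.33 and the groups overlapped. Hsd17b7, a sterol ketone reductase, was below the filter, since no sample held over 12 reads.

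The 4 measured genes of fatty acid synthesis were all up-regulated, with a median log2 fold change of 0.42, and kept this call under all 16 alternatives. Their summed level was 393, 383 and 381 CPM in the NP samples and 529, 512 and 471 CPM in the LP samples. Acss2, which makes acetyl-CoA from acetate, had 43.2, 37.0 and 43.3 CPM in NP and 66.8, 65.5 and 57.0 CPM in LP. It rose 1.53-fold (log2 0.61, SE 0.094, adjusted p = 7.54e-05).

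Me1, the cytosolic malic enzyme that supplies NADPH, had 147, 149 and 142 CPM in NP and 212, 194 and 184 CPM in LP. Its log2 fold change was 0.43 (SE 0.063, adjusted p = 5.38e-05). Acetyl-CoA carboxylase Acaca, the committed step of fatty acid synthesis, was at 51.5, 60.6 and 53.2 CPM in NP and at 78.3, 77.1 and 66.2 CPM in LP. It rose by 0.42 on the log2 scale (SE 0.087, adjusted p = 0.00139), by 0.60 in replicate 1 and 0.33 in replicates 2 and 3. ATP citrate lyase Acly, which releases cytosolic acetyl-CoA from citrate for both pathways, showed the smallest rise of the 4. Levels of 151, 136 and 142 CPM in NP and 172, 175 and 164 CPM in LP gave a log2 fold change of 0.25 (SE 0.059, adjusted p = 0.00369). In each of these genes every LP sample was above every NP sample.

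Scd1, which adds the double bond of oleate, had 114, 106 and 105 CPM in NP and 224, 213 and 207 CPM in LP. It lay nearest to the study's fold change cutoff, at 1.98-fold (log2 0.99, SE 0.060, adjusted p = 8.19e-10). It went past a 2-fold change without NP replicate 1 (log2 1.02), without LP replicate 3 (1.01) and with TMM computed without muscle markers and genes past the criteria (1.00). The paralog Scd2, whose reads the counting could in part exchange with those of Scd1, differed by -0.043 on the log2 scale (adjusted p = 0.624).

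**Figure D3:**
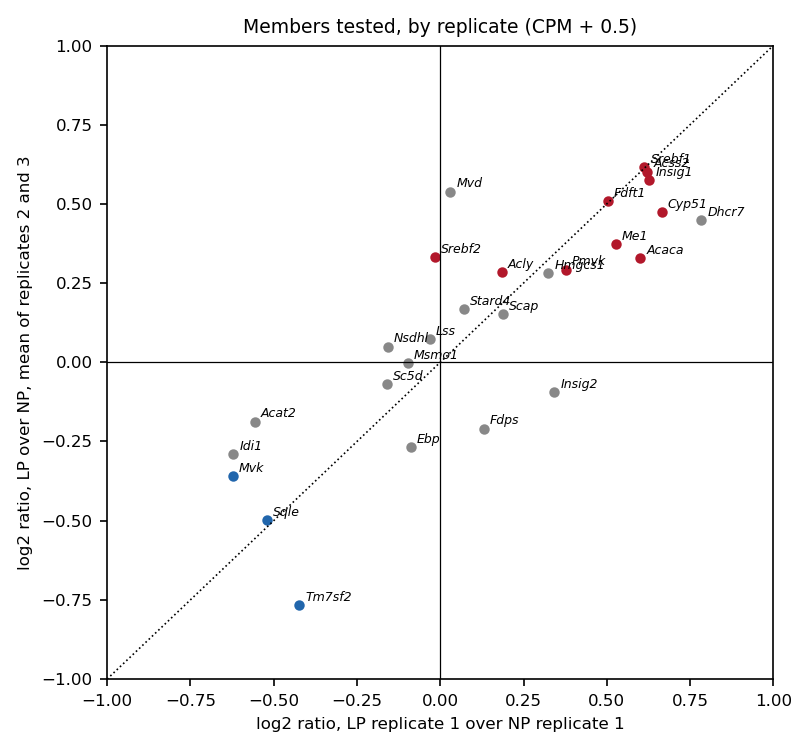
Log2 ratio of LP over NP (CPM + 0.5) in replicate 1 (horizontal) and in replicates 2 and 3 (vertical) for the 27 members tested, coloured as in the plot of fold changes by role. Members on the dotted line changed equally in both, as Srebf1, Insig1, Acss2, Fdft1 and Sqle nearly did, and Srebf2 and Mvd lie off it with a ratio near 0 in replicate 1.

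The fold changes were also compared between replicate 1 and replicates 2 and 3. Srebf1 gave 0.61 and 0.62, Insig1 0.63 and 0.58, Acss2 0.62 and 0.60, Fdft1 0.50 and 0.51, and Sqle -0.52 and -0.50. Tm7sf2 differed more, with -0.42 in replicate 1 and -0.77 in replicates 2 and 3, and Mvk gave -0.62 and -0.36.

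Other genes of sterol and fatty acid metabolism were taken from a list of 53, of which 41 were present and tested, with 12 higher (29.3%, against 15.3% of all genes) and 7 lower (17.1%, against 11.7%) in LP. DESeq2, and the fit with replicates 2 and 3 summed, each gave 10 higher and 5 lower. On the sterol side, 4 of 20 genes were higher and 4 lower. Their median log2 fold change was -0.061, and none passed the study's cutoffs.

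On the fatty acid side, 8 of 21 genes were higher (38.1%) and 3 lower (14.3%) in LP. The study's criteria, which 5.44% of all genes passed, were met by 5 of the 21, namely Lpl, Acacb, Cd36, Acsl1 and the down-regulated Mid1ip1. Lipoprotein lipase Lpl, which frees fatty acids from plasma triglycerides, rose 2.61-fold (log2 1.38, SE 0.075, adjusted p = 1.60e-10). Acacb, the carboxylase isoform at the mitochondrial membrane, rose 2.54-fold (log2 1.35, adjusted p = 6.00e-10). The fatty acid transporter Cd36 rose 2.45-fold (adjusted p = 0.00033), the acyl-CoA synthetase Acsl1 2.34-fold (adjusted p = 7.06e-11) and the phosphatidate phosphatase Lpin1 1.92-fold (adjusted p = 4.72e-06). These genes are also known from muscle and fat. The summed muscle markers were higher in the same LP samples, as was the adipocyte sum, there mostly through Plin4 alone. The part of either tissue in these values was not tested. Mid1ip1, whose product activates acetyl-CoA carboxylase, changed most among the down-regulated genes. Its level was 590, 531 and 536 CPM in NP and 215, 198 and 210 CPM in LP, and it fell by 1.41 on the log2 scale (SE 0.058, adjusted p = 2.96e-12).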

How the data were processed

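Thyroid RNA of 3 NP and 3 LP samples was sequenced by the authors, who aligned reads with TopHat 1.4.0 to assembly rn5, counted them on Ensembl release 81 gene models with HTSeq-count and deposited raw counts without normalization. How reads shared by near-identical genes were assigned, and whether strand was used, is not given in the sources used here.

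Counts were tested in R 4.3.3 with edgeR 4.0.16 (quasi-likelihood test, TMM, default filter on low counts) with Benjamini-Hochberg adjustment over the 11738 genes kept. CPM were scaled with TMM. Standard errors were derived from each F statistic and its log2 fold change, and 95% intervals use the test's degrees of freedom. Log2 ratios by replicate used CPM + 0.5. DESeq2 1.42.0 and limma 3.58.1 (voom) were alternatives. The steps were tested on simulated data. The members and lists were chosen with earlier results of these data known. All members were named, and of other pathway genes those with adjusted p below 0.05 and an absolute log2 change of at least 0.5. Some genes that this rule names, and a follicular marker, are not reported here.

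Replicate numbers are those of the labels. Same-numbered samples deviated together from their group means (correlations of 0.50, 0.227 and 0.197), but replicates 2 and 3 did so across numbers too (0.221 each way), so the pairing comes from the data and not from a shared animal or batch in the labels.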

Additional observations from a re-analysis of the deposited data

How the results depend on the processing

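Results were recomputed under 16 alternatives, of which scaling by library totals alone was added after the data were seen. The count of up-regulated members lay between 7 and 11 and that of down-regulated members was 3 in each, and 0 members passed the study's criteria in each. Scd1, given apart, is not in these counts and passed the study's criteria under some alternatives. With each replicate left out in turn, 7 to 10 members were up-regulated and the median log2 fold change of the members lay between 0.12 and 0.25. This median, 0.17, was 0.094 with library totals alone and 0.26 over the 19 members with a mean of at least 50 reads. With the replicate block, 11 members were up-regulated and 3 down-regulated, with Scap as the member added. With the block Idi1 had an adjusted p of 0.0935. The block lowered edgeR's biological coefficient of variation from 0.0645 to 0.0131, so its p-values rest largely on counting noise. With replicates 2 and 3 summed, 8 were up-regulated. DESeq2 called 7, limma-voom 10, and an adjusted p below 0.01 left 7 and 3. Of the 13 members called, 10 (7 up-regulated and 3 down-regulated) kept the call under all 16 alternatives, and Srebf2, Pmvk and Cyp51 lost it under 7 each. Scap gained it under 5 and Mvd under 1. Of 424 recomputed member values, 397 kept their side of the threshold, 21 lost it and 6 gained it, and no member that passed the test changed direction. Scaling by library totals alone raised the down-regulated other pathway genes from 7 to 11 and left 10 up-regulated. The cause of these differences was not tested. Members with at most 30 reads in every sample (Acat2, Stard4, Hsd17b7 and Dhcr7) had too few reads to resolve changes of the size seen in the others. More reads did not always give a smaller SE. Idi1, with 22 to 66 reads per sample, had an SE of 0.27, against 0.23 for Acat2 and 0.18 for Insig2 (30 to 51 reads).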
